A study of Mus musculus with 8 samples.

Results

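The free fatty acids of mouse faeces were described by chain length and by number of double bonds, before and after a single oral dose of streptomycin. Their members were the masses within 3 ppm of the neutral formula of a straight-chain acid with an even number of carbons from 12 to 24 and 0 to 4 double bonds, or of 6 further formulas (pentadecanoic, heptadecanoic and heptadecenoic acid and the acids with 20 carbons and 5 double bonds or 22 carbons and 5 or 6 double bonds). Of 41 formulas, 25 were matched, by 28 of the 2429 masses of the table. The samples were fresh faeces of age-matched female C57BL/6 mice, an inbred laboratory strain, whose age is not given. The 4 untreated samples were collected first. The mice then received 20 mg of streptomycin, an aminoglycoside antibiotic, by oral gavage, and the 4 streptomycin samples were collected 24 h later. The drug and the later collection therefore cannot be told apart. Nothing in the labels ties a sample to a mouse of its own, so the p-values reflect the variation among these 8 samples, part of which may be technical. The comparison addresses how an antibiotic alters intestinal metabolites.

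Fatty acids are written below as carbons:double bonds. Linoleic acid is 18:2, for example, and a letter after the shorthand tells apart several masses of 1 formula. A name stands for a formula and not for an identification: positional and branched isomers, conjugated forms and ring compounds with the same atoms have the same mass. Free fatty acids in faeces come from dietary triglycerides cut by lipases, from shed host cells and from bacterial membranes. Oleic and linoleic acid are the main unsaturated acids of seed oils, and palmitic acid is a saturated acid made by animals, plants and bacteria alike. Odd-chain and branched acids are characteristic of bacterial membranes. Gut bacteria also alter the unsaturated acids that reach them, adding water to a double bond or hydrogenating it.

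Acetonitrile extracts were infused without chromatography into an ion cyclotron resonance instrument, which weighs ions but does not separate isomers. The value of a sample is the mean relative intensity of its 2 acquisitions. Untreated samples listed 1210 to 1270 masses with summed intensities of 19761 to 20140, and streptomycin samples 1633 to 1768 masses with 21600 to 23221. The number of ions behind an intensity is unknown, so no counting interval is given. Fatty acids ionise with different efficiency, so a ratio or share between acids is used only to compare samples, not as a relative amount. The 2 calibrant masses added to every extract were themselves higher in the streptomycin samples, at 193 ± 21.7 against 147 ± 9.31 and at 138 ± 12.4 against 100.3 ± 12.0 (SD, n = 4 each). For members, another scale is named where it changed a call or a direction; summed rows and related lipids are given as deposited only.

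The matches were close. The median absolute error over the 28 masses was 0.374 ppm and 25 of them lay within 1 ppm. The exceptions were oleic acid at -1.35 ppm, the higher of the masses of 18:3 at 1.51 ppm and linoleic acid at -2.61 ppm, which is outside the stated accuracy of 2 ppm. Untreated samples each listed 21 members and streptomycin samples 22 or 23. The 16 formulas with no mass within 3 ppm included all 5 with 12 carbons, myristic acid (14:0), stearic acid (18:0), arachidic acid (20:0) and docosahexaenoic acid (22:6). The nearest mass to stearic acid lay 8.34 ppm above it, at 284.2739 Da. That mass was also within 3 ppm of the lower mass of 20:3, in a second set of masses described below.

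After streptomycin most of the long-chain unsaturated acids were lower and palmitic acid was higher. Both groups listed 16 of the 28 masses, while 5 were seen before treatment alone and 7 after it alone. The same shares over all 2429 masses were 26.1%, 26.6% and 47.3%. The groups did not overlap for 21 of the 28 masses and for 11 of the 16, beside 76.4% of all masses and 59.7% of those in both groups. Among the 16 masses in both groups 9 fell, 1 rose and 6 did not pass (limma, Benjamini-Hochberg adjusted p under 0.05 over all masses). Of all 633 masses in both groups, 38.7% were lower and 20.7% higher, 59.4% in all. The median log2 change of the 16 was -0.64, beside -0.47 for all masses in both groups. On a scale divided by the median ratio of the samples, which moves the median of all masses in both groups to -0.08, 6 of the 16 were lower and 3 (16:0, 16:1 and 17:0) higher. After division by total intensity or by the calibrants, with medians of all masses in both groups at -0.63 and -0.87, it was 13 lower and 1 higher on each scale.

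**Figure D1:**
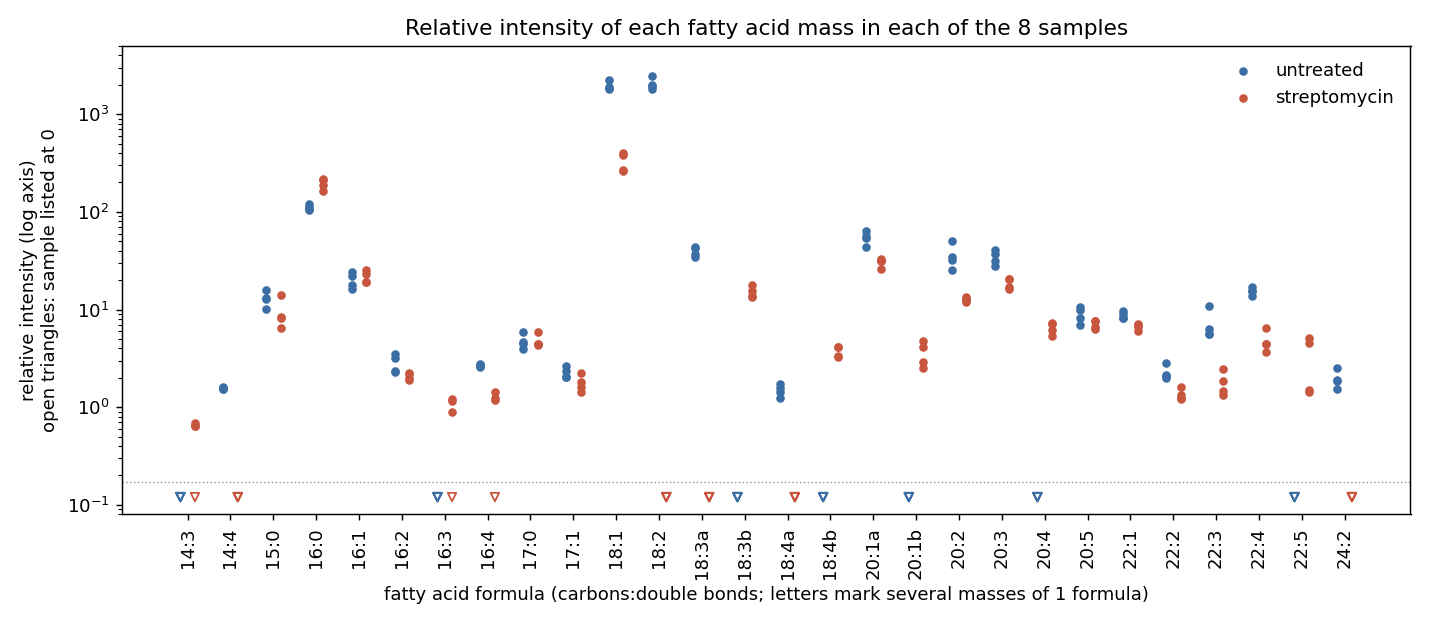
Relative intensity (log axis) of each of the 28 fatty acid masses in the 4 untreated (blue) and 4 streptomycin (red) samples, with open triangles for samples listed at 0. Oleic acid (18:1) lies between 1817 and 2264 in untreated samples and between 262 and 398 after streptomycin, where linoleic acid (18:2) has triangles only.

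The unsaturated acids with 18 carbons made up 91.5% to 93.2% of the fatty acid intensity in untreated samples and 42.8% to 56.7% in streptomycin samples. Oleic acid, the monounsaturated acid of olive and other oils, was at 2264, 1817, 1874 and 1899 in the untreated samples and at 265, 262, 386 and 398 in the streptomycin samples. Every streptomycin sample was below every untreated one, and the ratio of the means was 5.99 (log2 change -2.61 ± 0.18 SE, limma adjusted p = 2.23e-06). The log2 change ran from -3.03 to -2.22 over the 22 alternatives tried, and all of them kept the call.

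Linoleic acid, the essential diunsaturated acid of seed oils, was at 2450, 1930, 1814 and 1980 in the untreated samples and was listed at 0 in all 4 streptomycin samples. No mass was listed in a streptomycin sample between 219 ppm below and 214 ppm above its formula mass of 280.2402 Da. A 0 in the table means only that the mass was not listed, so no fold is given.

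Linolenic acid (18:3), the plant acid with 3 double bonds, stood on a pair of masses that never occurred in the same sample. The lower, 278.2244 Da, was at 44.1, 34.2, 43.0 and 36.7 in the untreated samples, and 278.2250 Da was at 13.7, 15.6, 17.7 and 13.5 in the streptomycin samples. Read singly, 1 mass fell and 1 rose. Summed into 1 row, a step chosen after seeing the data, the formula fell (log2 change -1.38, limma adjusted p = 2.40e-05). The formula with 4 double bonds, that of stearidonic acid, was split the same way, with 1.73, 1.25, 1.56 and 1.42 at 276.2088 Da in untreated samples and 4.17, 4.15, 3.32 and 3.26 at 276.2091 Da in streptomycin samples. Its sum rose (log2 change 1.32, limma adjusted p = 4.75e-05), opposite to the other unsaturated acids with 18 carbons and to the lower mass of the same formula described below.

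Palmitic acid, the common saturated acid with 16 carbons, went the other way. Its intensity was 112, 105, 121 and 108 in the untreated samples and 162, 217, 213 and 188 in the streptomycin samples. The groups did not overlap, and the log2 change was 0.80 ± 0.12 (SE, limma adjusted p = 0.000353). It kept its direction and call on every scale, with log2 changes of 0.38 relative to the calibrants (adjusted p = 0.0279), 0.64 relative to total intensity and 1.19 by median ratio.

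Of its unsaturated relatives with 16 carbons, none of the 3 listed in both groups rose as deposited, and 1, 16:3, was listed after streptomycin alone. Palmitoleic acid (16:1), made from palmitic acid by a desaturase, was at 16.1, 18.02, 24.2 and 22.1 in untreated and at 19.1, 25.4, 22.9 and 18.97 in streptomycin samples, and the groups overlapped (log2 change 0.11 ± 0.17 SE, limma adjusted p = 0.556). It was higher by median ratio (log2 change 0.50, adjusted p = 0.0425), while its sign was negative, without passing, on the other 2 scales. The 16:2 mass went from 2.36, 2.27, 3.54 and 3.22 to 1.91, 2.23, 2.17 and 2.00 (log2 change -0.43 ± 0.17 SE, adjusted p = 0.0386). That call was lost under 10 of the 22 alternatives, among them the median-ratio scale (log2 change -0.04, adjusted p = 0.835) and the fit without untreated replicate 3 (adjusted p = 0.0892). The 16:3 mass was listed in streptomycin samples 2, 3 and 4 only, at 1.22, 1.15 and 0.891. The 16:4 mass was at 2.58 to 2.74 in untreated samples and at 1.42, 0, 1.25 and 1.19 in streptomycin samples. The groups did not overlap, yet it did not pass (log2 change -2.08 ± 0.94 SE, limma adjusted p = 0.0666). It was lower without streptomycin replicate 2, the sample at 0 (log2 change -1.05, adjusted p = 2.09e-05), and after division by total intensity (adjusted p = 0.0460) or by the calibrants (adjusted p = 0.0318).

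The neutral masses of the odd-chain acids did not pass as deposited, and their calls moved with the scale. Pentadecanoic acid (15:0) was at 10.1, 15.7, 12.8 and 13.2 in untreated and at 8.26, 13.995, 8.34 and 6.52 in streptomycin samples (log2 change -0.52 ± 0.25 SE, limma adjusted p = 0.0807). Streptomycin replicate 2 stood among the untreated values, and without it the mass was lower (log2 change -0.74, adjusted p = 0.00634), as it was after division by total intensity (adjusted p = 0.0353) or by the calibrants (adjusted p = 0.00218). Heptadecanoic acid (17:0) was at 5.88, 4.43, 4.63 and 3.97 and at 4.32, 5.95, 4.48 and 4.48 (log2 change 0.03 ± 0.16 SE, adjusted p = 0.876), with a negative sign relative to total intensity and to the calibrants. By median ratio it was higher (log2 change 0.42, adjusted p = 0.0484). Heptadecenoic acid (17:1) was at 2.63, 2.04, 2.35 and 2.02 and at 1.60, 2.25, 1.82 and 1.42 (log2 change -0.36 ± 0.17 SE, adjusted p = 0.0724). It too was lower without streptomycin replicate 2 (adjusted p = 0.0146), relative to total intensity (adjusted p = 0.0230) and relative to the calibrants (adjusted p = 0.00423), while its log2 change was 0.026 by median ratio.

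Most acids with 20 and 22 carbons, which animals make by elongating and desaturating the acids with 18, fell. Of the 8 such masses listed in both groups, 7 were lower and eicosapentaenoic acid (20:5) did not pass, beside 38.7% lower over all masses in both groups. By median ratio 5 of the 8 were lower. Eicosenoic acid (20:1) went from 63.8, 43.4, 53.96 and 56.4 to 26.1, 31.1, 33.1 and 31.6 (log2 change -0.83 ± 0.14 SE, limma adjusted p = 0.000846). A second row at the same 310.2873 Da appeared after treatment alone, at 2.54 to 4.72, and the sum of both rows was still lower (log2 change -0.67, adjusted p = 0.00229). The 20:2 mass fell further, from 50.3, 25.2, 34.6 and 31.8 to 11.8, 13.4, 12.9 and 12.7, a log2 change of -1.44 ± 0.20 (SE, limma adjusted p = 0.000250). The 20:3 mass, the formula of the precursor of arachidonic acid, went from 31.4, 28.2, 40.4 and 37.4 to 20.3, 20.7, 16.3 and 16.9, a log2 change of -0.88 ± 0.15 (SE, limma adjusted p = 0.000822). None of these 3 acids had overlapping groups, beside 59.7% without overlap over all masses in both groups. Their calls held on all 3 other scales.

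Arachidonic acid (20:4), the host precursor of prostaglandins and leukotrienes, was listed in streptomycin samples only, at 7.14, 7.19, 5.39 and 6.21. The 20:5 mass, which is also the formula of the resin acids of conifers, was at 6.90, 8.13, 9.96 and 10.5 in untreated and at 7.72, 7.66, 6.26 and 6.66 in streptomycin samples, with overlapping groups (log2 change -0.31 ± 0.16 SE, limma adjusted p = 0.0949). It was lower after division by total intensity (adjusted p = 0.0233), on the calibrant scale (adjusted p = 0.000708) and without untreated replicate 1 (adjusted p = 0.0232), while by median ratio its log2 change was 0.075.

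Among the acids with 22 carbons the more unsaturated masses changed most. The 22:1 mass, that of erucic acid, went from 8.18, 8.10, 8.98 and 9.55 to 5.96, 7.07, 6.61 and 6.92, a log2 change of -0.39 ± 0.10 (SE, limma adjusted p = 0.00730). The 22:2 mass went from between 2.01 and 2.86 to between 1.21 and 1.61, a log2 change of -0.75 ± 0.15 (SE, limma adjusted p = 0.00216). Neither passed by median ratio, at log2 changes of -0.00085 for 22:1 (limma adjusted p = 0.995) and -0.36 for 22:2 (adjusted p = 0.0682). The 22:3 mass was at 10.9, 5.63, 6.35 and 5.63 in untreated and at 1.85, 2.44, 1.34 and 1.45 in streptomycin samples (log2 change -1.99 ± 0.28 SE, adjusted p = 0.000242). Adrenic acid (22:4), the elongation product of arachidonic acid, was at 15.4, 13.9, 15.5 and 16.95 and at 4.43, 6.42, 3.69 and 4.39 (log2 change -1.73 ± 0.18 SE, adjusted p = 3.11e-05). The groups of all 4 masses were apart, as they were for 59.7% of all masses in both groups. Docosapentaenoic acid (22:5) was listed in streptomycin samples only, at 5.09 and 4.55 in replicates 1 and 2 and at 1.503 and 1.43 in replicates 3 and 4, and in 6 of the 8 acquisitions. With the second acquisition alone it did not pass (limma adjusted p = 0.107).

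The 3 remaining masses, with 14 and 24 carbons, were each listed in 1 group only, at 2.51 or less. The 14:3 mass was at 0.683, 0.641 and 0.643 in streptomycin replicates 1, 2 and 4 and at 0 elsewhere. The 14:4 mass was at 1.54 to 1.63 and the 24:2 mass at 1.54 to 2.51 in the untreated samples.

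**Figure D2:**
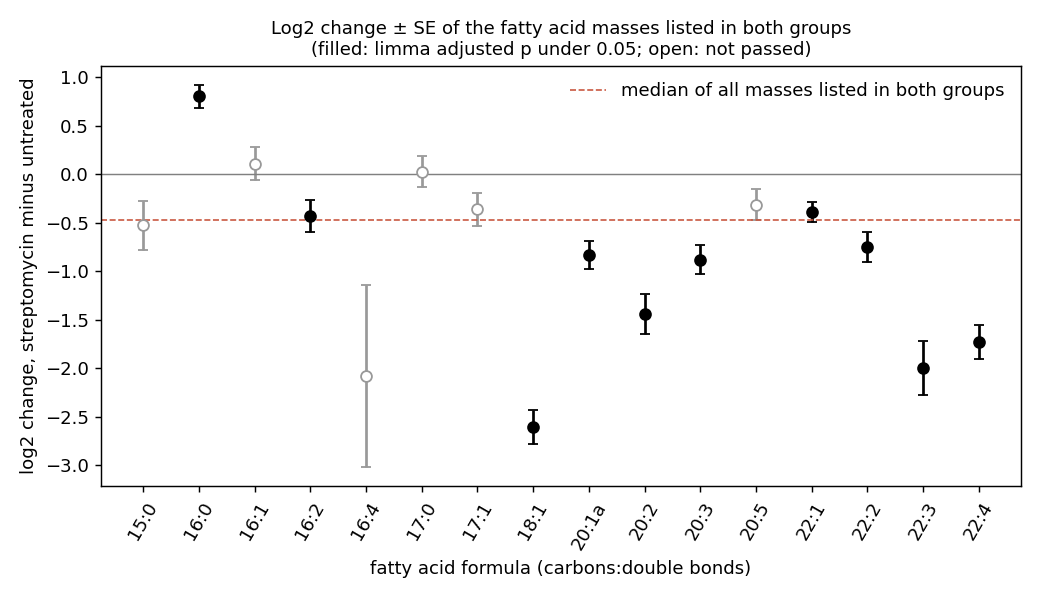
Log2 change, streptomycin minus untreated, with its SE (bars) for the 16 fatty acid masses listed in both groups, ordered by carbons and double bonds. Filled points passed limma's test and open points did not, and the dashed line is the median of -0.47 of all 633 masses listed in both groups. Palmitic acid (16:0) is the 1 filled point above zero, and oleic acid (18:1) is the lowest point.

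The makeup of the fatty acid signal shifted as a whole, given here as a description with no test. The members' summed intensity was 5106, 4071, 4079 and 4246 in untreated samples and 578, 658, 753 and 731 in streptomycin samples. They held 21.97% ± 2.49 of all intensity before and 3.06% ± 0.409 after the drug (SD, n = 4). Acids with 18 carbons were 92.5% ± 0.763 of the fatty acid signal before and 50.6% ± 6.08 after the drug, while those with 16 carbons went from 3.16% ± 0.452 to 32.6% ± 3.55. Saturated acids went from 2.98% ± 0.368 to 30.9% ± 3.71, and acids with 2 double bonds from 47.6% ± 1.54 to 2.39% ± 0.248. The intensity of oleic acid was 20.3, 17.3, 15.5 and 17.6 times that of palmitic acid in the untreated samples and 1.64, 1.21, 1.81 and 2.11 times in the streptomycin samples. These are shares of intensity and not of molecules, and oleic, linoleic and palmitic acid set most of them.

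**Figure D3:**
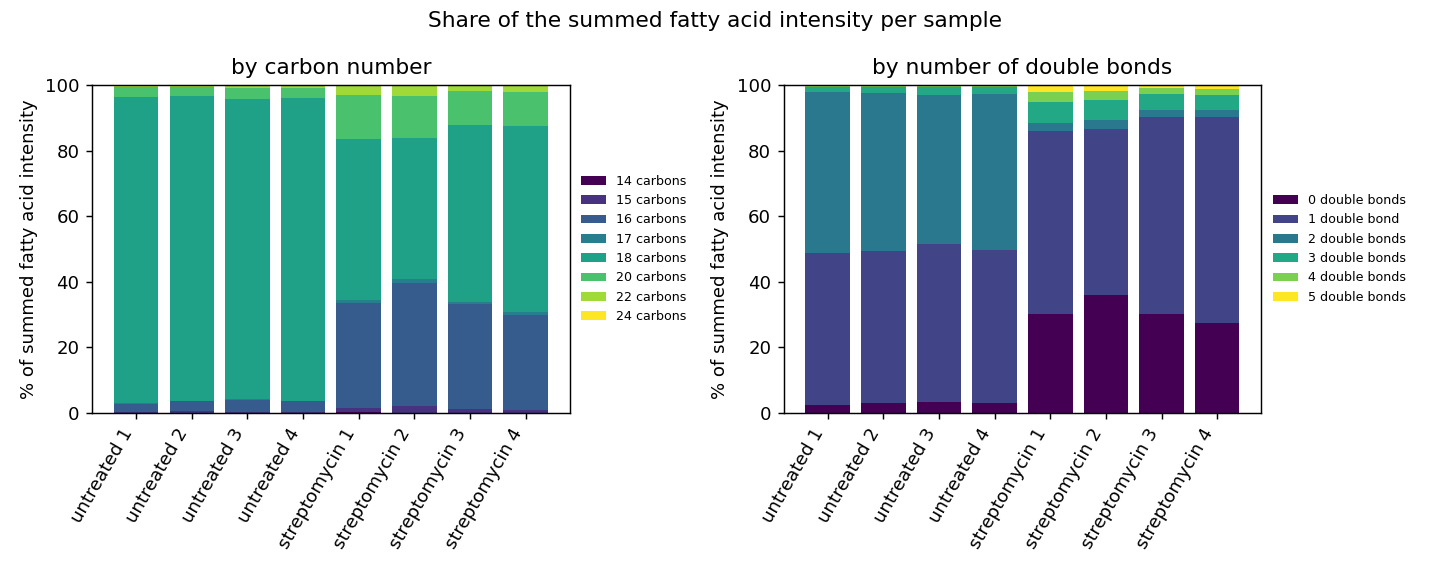
Stacked bars of the share (%) of each sample's summed fatty acid intensity by carbon number (left) and by number of double bonds (right), for the 4 untreated and 4 streptomycin samples. The share with 18 carbons lies between 91.5% and 93.2% in untreated samples and between 42.8% and 56.7% in streptomycin samples.

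Pairs of acids that differ by 1 structural step were then compared within samples. The log2 ratio of the members of a pair does not depend on how a sample is scaled. All 14 pairs were formed among the 15 formulas listed in all 8 samples, 8 of them differing by 1 double bond and 6 by 2 carbons, and neighbouring pairs share a member. The test was the exact two-sided permutation test over samples, with a smallest possible p of 0.0286 for 4 against 4 samples, adjusted over the 14 pairs. In all 11 pairs that passed, every streptomycin sample lay on 1 side of every untreated sample (exact permutation p = 0.0286, adjusted p = 0.0364). How often pairs of other masses would pass was not determined, so the count is not a result particular to fatty acids. Among single masses in both groups, 59.7% had groups that did not overlap. Brackets give the 95% interval obtained by inverting the test.

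For 1 double bond more, 6 of 8 pairs passed and in 5 of them the more unsaturated acid was lower relative to its partner after streptomycin. Formulas without a mass in all 8 samples formed no pair. Among them were 18:2, listed before treatment alone, and 16:3, 20:4 and 22:5, listed after it alone. The log2 ratio of 16:1 over 16:0 differed by -0.69 [-1.03, -0.29]: palmitoleic acid had 18.05% ± 2.85 of palmitic acid's intensity before and 11.1% ± 0.822 after treatment (SD, n = 4). The ratio of 16:2 over 16:1 differed by -0.54 [-0.74, -0.26]. The odd-chain pair also differed, although neither neutral mass passed alone. Its ratio of 17:1 over 17:0 was 0.481 ± 0.0311 before and 0.368 ± 0.0372 after treatment (SD, n = 4), a log2 difference of -0.39 [-0.68, -0.14]. The ratio of 20:2 over 20:1 differed by -0.61 [-1.02, -0.32] and that of 22:3 over 22:2 by -1.24 [-1.79, -0.81]. The exception was 20:3 over 20:2, which was higher after streptomycin by 0.56 [0.10, 1.47], and which did not pass without untreated replicate 1 (exact test, adjusted p = 0.0667), without streptomycin replicate 1 (exact test, adjusted p = 0.109) or without streptomycin replicate 2 (exact test, adjusted p = 0.10). The ratios of 22:2 over 22:1, at -0.36 [-0.93, 0.04], and of 22:4 over 22:3, at 0.26 [-0.33, 1.10], did not pass (exact permutation test, adjusted p = 0.0667 and 0.429). The first of these passed without untreated replicate 4 (exact permutation test, adjusted p = 0.0333).

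For 2 carbons more, 5 of 6 pairs passed and oleic acid stood out on both sides. The log2 ratio of 18:1 over 16:1 differed by -2.71 [-3.77, -1.88] and that of 20:1 over 18:1 by 1.78 [1.42, 2.31], so that oleic acid was lower relative to both its shorter and its longer neighbour. From 20 to 22 carbons the direction varied with the number of double bonds. The ratio of 22:1 over 20:1 was higher by 0.44 [0.10, 0.83] and that of 22:2 over 20:2 by 0.69 [0.24, 1.08], whereas that of 22:3 over 20:3 was lower, at -1.11 [-2.08, -0.36]. With both rows of 20:1 summed the first of these was 0.28 and did not pass (exact permutation test, adjusted p = 0.0667), nor did it pass without any 1 of the streptomycin samples (exact permutation test, adjusted p = 0.0727 to 0.08). The ratio of 22:2 over 20:2 did not pass without streptomycin replicate 2, and that of 16:1 over 16:0 did not pass without streptomycin replicate 3 or without replicate 4 (exact permutation test, adjusted p = 0.0727 for each). The ratio of 17:0 over 15:0 differed by 0.55 [-0.45, 1.29] and did not pass (exact permutation test, adjusted p = 0.123), although limma on the ratios put it at an adjusted p of 0.0355.

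**Figure D4:**
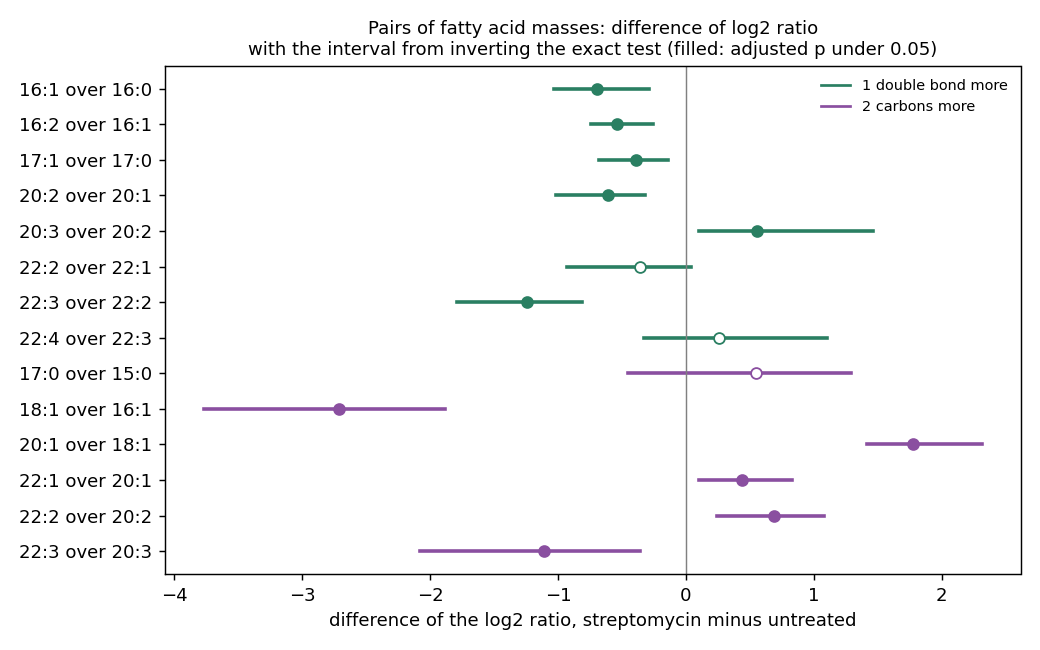
Difference, streptomycin minus untreated, of the within-sample log2 ratio for the 14 pairs of fatty acid masses (points), with the interval from inverting the exact permutation test (lines), in green for 1 double bond more and in purple for 2 carbons more. Filled points passed at an adjusted p = 0.0364, and the pairs with oleic acid lie farthest from zero, at -2.71 and 1.78.

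A second set of masses ran parallel to the fatty acids. Of the 41 formulas, 25 had a mass 21.9819 Da below them, the difference between sodium and hydrogen, which is where a protonated ion falls if it is read as a sodium adduct. The median absolute error of these 25 masses was 0.297 ppm. The 7 other forms searched gave between 0 and 3 masses each for the same 41 formulas: the anion, the sodium, potassium and hydrogen chloride adducts, the carbon-13 isotope, and masses lower by potassium for hydrogen or by hydrogen chloride. All 3 forms below the neutral mass were added after seeing the data. The lower masses also covered 7 formulas with no mass of their own, among them stearic acid at 262.2895 Da, and lauric acid (12:0) at 178.1956 Da. Whether these masses are the fatty acids themselves was not tested.

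At these lower masses oleic and linoleic acid stood out less. Both groups listed 14 of the 25, the other 11 were seen before treatment alone, and none after it alone, beside 26.1%, 26.6% and 47.3% of all masses. Of the 14, 11 fell, 1 rose and 2 did not pass, with a median log2 change of -0.72, beside 38.7% lower, 20.7% higher and a median of -0.47 over all 633 masses in both groups. On the median-ratio scale 4 of the 14 were lower and 1 higher. For linoleic acid the lower mass, 258.2582 Da, was at 26.4, 20.3, 22.2 and 21.1 in untreated and still at 17.2, 16.1, 11.1 and 10.5 in streptomycin samples (log2 change -0.74 ± 0.19 SE, limma adjusted p = 0.00815), where 280.2395 Da was listed at 0. For oleic acid it went from 24.3 ± 2.66 to 15.2 ± 1.69 (SD, n = 4), a log2 change of -0.68 ± 0.12 (SE, adjusted p = 0.00115) beside -2.61 at the neutral formula. For stearic acid it went from 8.17 ± 0.903 to 4.74 ± 1.16, a log2 change of -0.81 ± 0.19 (SE). Among the odd-chain acids, 17:0 and 17:1 fell at the lower mass (log2 change -0.47 and -0.91, limma adjusted p = 0.00788 and 8.78e-05). That of 15:0 did not pass (log2 change -0.22, limma adjusted p = 0.312).

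For palmitic and arachidonic acid, and for the formulas 14:3, 16:3 and 18:4, the readings pointed in opposite directions. The lower mass of palmitic acid, 234.2583 Da, fell from 5.17, 5.89, 5.73 and 6.23 to 4.06, 4.28, 3.00 and 3.03 (log2 change -0.69 ± 0.15 SE, limma adjusted p = 0.00310), while the neutral mass rose. That of arachidonic acid, 282.2582 Da, appeared before treatment alone, at 6.93, 8.74, 8.91 and 9.14, and the neutral mass after it alone. The lower masses of 14:3, 16:3 and 18:4 were likewise listed before treatment alone, at means of 2.86, 1.71 and 7.66. That of 18:4 was at 11.5, 9.11, 9.99 and 0, so untreated replicate 4 did not list it. The neutral masses of 14:3 and 16:3 were listed after treatment alone and the neutral sum of 18:4 rose. Palmitoleic acid (16:1) and 17:0 fell at the lower mass (log2 change -0.57 and -0.47, limma adjusted p = 0.00197 and 0.00788). Their neutral masses did not pass, at log2 changes of 0.11 and 0.03. The 1 lower mass that rose was that of lauric acid, at 7.72 ± 0.882 before and 11.9 ± 3.33 after treatment (SD, n = 4), a log2 change of 0.58 ± 0.22 (SE, limma adjusted p = 0.0396). None of the 14 was higher relative to total intensity or to the calibrants, with a floor of 1, among masses in both groups alone, by the methods' t-test or with the first acquisition alone. The log2 ratio of the neutral over the lower mass was compared for the 9 formulas with both masses in both groups. It was higher after streptomycin by 1.496 for palmitic acid, with an interval of 0.88 to 2.04, and lower for oleic acid, at -1.93 with an interval of -2.49 to -1.33. Both had the smallest possible p (exact permutation p = 0.0286), as did 3 others of the 9, but none passed after adjustment over the 9 (adjusted p = 0.0514).

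**Figure D5:**
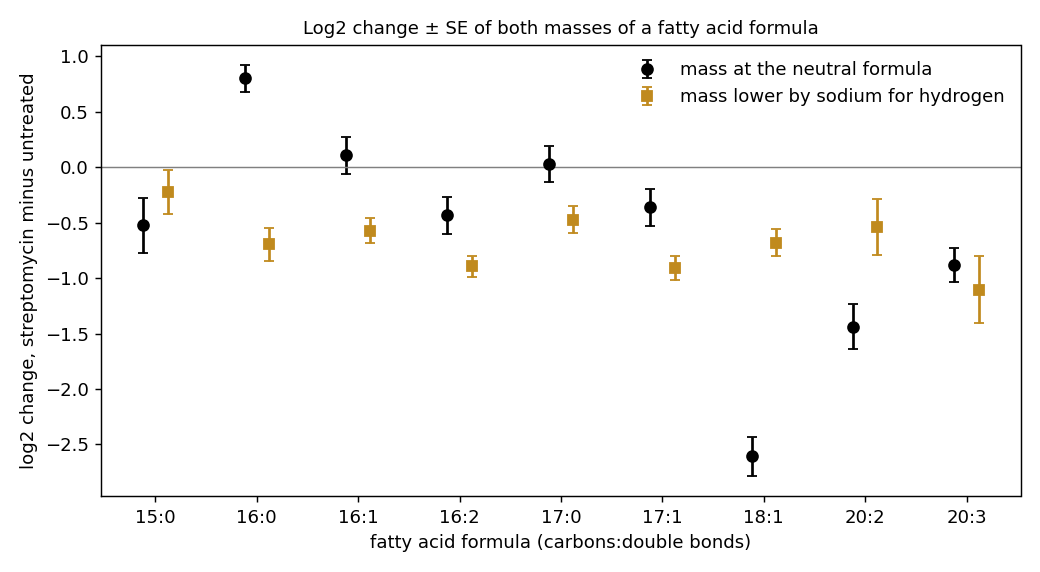
Log2 change, streptomycin minus untreated, with its SE for the 9 formulas with a mass at the neutral formula (black circles) and at the mass 21.9819 Da below it (ochre squares) in both groups. Palmitic acid (16:0) lies at 0.80 against -0.69, and oleic acid (18:1) at -2.61 against -0.68.

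Lipids that carry the same acyl chains were set beside the free acids. The 4 formulas of hydroxylated or oxidised acids with 18 carbons, among them products of bacterial hydration, had 7 masses. Of these, 5 were listed in both groups and fell, and 2 were listed before treatment alone. Each of these 2 shared its formula with a mass still listed after streptomycin, at 6.42 ± 0.144 and 5.53 ± 0.703 (SD, n = 4). No formula of this class was therefore absent after treatment. Of 5 monoacylglycerols searched, products of fat digestion, those of palmitic and stearic acid had no match. The other 3 were listed in both groups and fell, beside 38.7% lower over all masses in both groups. Of 4 N-acylethanolamines, signalling amides of fatty acids, 2 in both groups fell and 2 were listed before treatment alone. That of palmitic acid fell, unlike the free acid, from 10.4 ± 0.997 to 3.84 ± 0.340 (SD, n = 4). Its log2 change was -1.44 ± 0.11 (SE, limma adjusted p = 4.60e-06). The mass of hydroxystearic acid, the hydration product of oleic acid, went from 62.7, 33.2, 58.0 and 47.6 to 11.4, 16.3, 24.6 and 30.1 (log2 change -1.35 ± 0.35 SE, limma adjusted p = 0.00756). The monoacylglycerol of oleic acid changed by -0.45 ± 0.17 and that of linoleic acid, which was listed in all 8 samples, by -1.71 ± 0.27 (log2, SE). Of 4 lysophosphatidylcholines, membrane lipids with 1 acyl chain, that of palmitic acid was listed in both groups and rose (log2 change 3.37 ± 0.34 SE, limma adjusted p = 2.93e-05), and 3 were listed after treatment alone. The acylcarnitines, the form in which host mitochondria import fatty acids, of palmitic, stearic and oleic acid were also listed after treatment alone, at 4.22 ± 1.21, 2.42 ± 0.500 and 4.09 ± 1.22 (SD, n = 4). Of 10 other chain lengths, 3 had a mass: 15:1 and 25:0 in streptomycin samples only, and 19:1, which did not pass (limma adjusted p = 0.108). In all, 9 of these 24 masses, which matched only 21 formulas, were higher and 14 lower, beside 52.7% higher and 36.7% lower over all 2429 masses. Of the 9, 8 were listed after treatment alone, and of the 14, 4 before it alone, so that their direction was fixed by the listing.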

How the data were processed

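Per the labels, faecal extracts in acetonitrile were infused into a 12-T instrument in positive and negative ion mode over m/z 150 to 1100, with 200 scans per spectrum and 2 acquisitions per sample. The authors deposited 1 table of neutral masses with a relative intensity for each acquisition, not log-transformed. The reference of these intensities, the peak picking and the joining of ion modes are not stated in the labels.

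The mean of both acquisitions, with 0 where a mass was not listed, was the value of a sample. Values of 0 were set to the lowest intensity, 0.0738, before the log2 transform. All 2429 masses (every one had values in 3 or more samples of a group) were fitted with limma 3.58.1 in R 4.3.3 (lmFit and eBayes, 4 against 4 samples, no replicate block, Benjamini-Hochberg adjustment, threshold 0.05). At this floor of 0.0738 every mass of 1 group passed, as a result of the listing, so these masses carry no fold here. Their calls depend on the floor: with a floor of 1, 16:3 (limma adjusted p = 0.193) and 14:3 did not pass. Pairs were tested by exact permutation in Python 3.11.15. On simulated data over 539 masses, 200 of them changed, the limma step recovered 72% of 2-fold and 97% of 4-fold changes, with 6 false calls among 175. The simulated masses had values in all 8 samples, unlike most of the 2429, so these rates do not carry over to the full fit. Masses of 1 group also enter the adjustment. With masses in both groups fitted alone, 16:2 did not pass (limma adjusted p = 0.0765).

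Every member is accounted for in the text, and related lipids are given as counts with examples that share an acyl chain. Members and lists were chosen with earlier results of these data known. Alternatives were other values for 0, detection filters, scalings, a replicate block, single acquisitions, a trend with intensity, the t-test named in the methods, other mass tolerances, the nearest row and leaving out each sample. Summed rows, the mean over listed acquisitions and the lower ion form were added after seeing the data.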

Additional observations from a re-analysis of the deposited data

Results flagged for a closer look

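In 7 of 72 groups of 4 values (member intensities and log2 pair ratios) 1 sample lay far from the other 3, by Dixon's test at the 95% level, which chance alone meets in about 1 of 20 groups. The 14:3 and the 16:4 mass were each at 0 in 1 streptomycin sample while the next sample was at 0.641 and 1.19. Heptadecanoic acid (17:0) was at 5.95 in 1 streptomycin sample, with the next at 4.48. The 22:2 mass was at 2.86 and the 22:3 mass at 10.9 in untreated replicate 1, with the next samples at 2.11 and 6.35. The log2 ratio of 16:2 over 16:1 was -2.99 in 1 untreated sample, with the next at -2.78, and that of 20:3 over 20:2 was -0.68 in untreated replicate 1, with the next at 0.16.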

How the results depend on the processing

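Apart from leaving out samples, 343 of 377 values of single masses and 85 of 98 of pairs kept their direction and side of the threshold. The first count includes the masses of 1 group, whose direction and call mostly follow from the listing. For those masses it does not measure stability. Fitting only masses in both groups left 1 member higher and 8 lower. The nearest row per formula alone gave 5 higher. Among members in both groups, 3 were higher on the median-ratio scale and 2 with rows summed. The sign turned, among members, for 16:1 (log2 -0.052 by total intensity, -0.32 by calibrants), 17:0 (-0.13, -0.40, and -0.030 with acquisition a), 17:1 (0.026 by median ratio), 20:5 (0.075 by median ratio) and 18:4 (1.32 summed), and 14:3 was at 0 with a floor of 1. For 17:0 it also turned without untreated replicate 4 (-0.051) and without streptomycin replicate 2 (-0.079), in a leave-one-out range of -0.079 to 0.14. Without each sample in turn, members higher stayed at 8 and lower ranged from 13 to 17. With all samples, 52.7% of all masses were higher and 36.7% lower. Of the 8, 7 were listed after treatment alone, so that their direction was fixed by the listing. Among members in both groups, 1 was higher and 8 to 12 were lower without each sample in turn, and 8 to 12 pairs passed. Nothing in the labels says that same-numbered samples share a mouse, so the numbers were not taken as pairs. Deviations of same-numbered samples correlated at 0.030 to 0.12 and those of different-numbered samples at -0.19 to 0.12. Such small correlations cannot exclude pairing. With the replicate block, sign flips of 4 pairs cannot go below p = 0.125 and 0 pairs passed by that exact test. In the limma fit with the block, 16:2 lost its call (adjusted p = 0.0641) and 15:0 gained one (adjusted p = 0.0491). The files give no ion counts, so a mass listed at 0 has no known upper limit. The cause of these shifts was not tested.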
